A study of Mus musculus with 4 samples.

Results

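The genes described here are amino acid carriers of the SLC7 family, Slc7a1, Slc7a2, Slc7a3, Slc7a5, Slc7a6, Slc7a7, Slc7a8, Slc7a10 and Slc7a11, together with Slc3a2. They were chosen by name from the family, with earlier results of these data known. They are not the whole family, and 7 related SLC7 and SLC3 genes are described apart below. Each symbol matched 1 row of the deposited table, which gave 10 of 38293 genes. RNA sequencing measured polyadenylated transcripts in ventricles of single mouse embryos of C57BL/6 background at stage E12.5, all from litter 6, after atria and valve region had been removed. The conditional knockout group (cKO), of genotype Hif1alphaflox/flox/Nkx2.5Cre/+, had Hif1a floxed on both chromosomes and Cre recombinase at 1 copy of Nkx2-5, a gene expressed in the precursors of heart muscle. The control group, Hif1alphaflox/flox/Nkx2.5+/+, had the same floxed alleles and no Cre. There were 2 libraries per group, numbered 2 and 3 in each, and each came from 1 embryo. Embryos with the Cre and unfloxed Hif1a were not among the groups, so the effect of the Cre or of its locus and that of Hif1a loss cannot be told apart.

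Carriers of this family move amino acids across the plasma membrane. The cationic carriers Slc7a1, Slc7a2 and Slc7a3 work alone and bring in arginine, lysine and ornithine. The other members are light chains, which exchange 1 amino acid for another and reach the membrane bound by a disulfide bridge to a heavy chain, here Slc3a2. Several of these genes are known targets of ATF4, a transcription factor made when amino acids are short, among other conditions.

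The libraries held between 8561687 and 19801300 expected counts in all, cKO replicate 3 being the deepest. Levels below are counts scaled to a common depth (CPM) after TMM scaling, and every fold change is cKO over control. Hif1a, the floxed gene, stood at 716 and 663 CPM in the cKO libraries, against 530 and 552 CPM in the control libraries. Reads from floxed and retained exons enter 1 count, so the deletion is not checked by it. Xist stood at 2.11 CPM in cKO replicate 3 and between 1754 and 2097 CPM in the other libraries, and the Y-linked Ddx3y at 101 CPM in cKO replicate 3 and at most 0.110 CPM in the others, so this cKO library alone came from a male. Heart muscle markers summed to 38120 and 35150 CPM in cKO, against 39020 and 37730 CPM in control, with 0 of 10 markers at 0 in all libraries. Among markers of other cells, 0 of 10 endothelial and endocardial genes rose or fell, but all 10 had a negative log2 fold change, and they summed to 1482 and 1336 CPM in cKO, against 1575 and 1662 CPM in control. Of 8 epicardial genes 1 fell, and the sums were 354 and 265 CPM in cKO, against 335 and 374 CPM in control. Erythroid markers summed to 2839 and 6867 CPM in cKO, against 5361 and 6226 CPM in control, the low value being that of cKO replicate 2, and all 10 had a negative log2 fold change with 0 past the threshold. Of 6 neural genes 3 could be tested, 0 passed, and the sums were 15.8 and 20.3 CPM in cKO, against 18.2 and 14.4 CPM in control. Sums for immune genes were 99.1 and 73.5 CPM in cKO and 90.8 and 112 CPM in control, and those for cushion mesenchyme 768 and 1064 CPM in cKO and 826 and 1125 CPM in control. Their part in the results below was not tested.

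Of the 9 members with enough reads to test, 1 rose in the cKO ventricles (Slc7a3), 0 fell and 8 did not pass, by edgeR's quasi-likelihood test with Benjamini-Hochberg adjustment over 13711 genes and a threshold of 0.05. Over all tested genes 0.511% passed, 0.146% as higher and 0.365% as lower in cKO, or 20 and 50 genes. This split was not stable, with 72 genes higher and 69 lower without cKO replicate 2, 15 and 24 without control replicate 3, and 15 and 18 when a change of more than 1.5-fold was tested. An unadjusted p under 0.05 was found for 4 of the 9 members, against 6.97% of all genes. The median log2 fold change was 0.11 over the 9 tested members, 6 of them positive, and 0.00 over all tested genes, of which 49.9% were positive. The members' median moved with single libraries, to 0.18 without cKO replicate 2, 0.03 without cKO replicate 3 and 0.20 without control replicate 2. In 3 tested members (Slc7a3, Slc7a11 and Slc3a2) both cKO libraries lay above both control libraries, which was so for 19.4% of all genes, and in 1 (Slc7a2) both lay below, which was so for 18.8%; for these 4 of 9 members the groups did not overlap, against 38.2% of all genes. The cell types that these transcripts came from were not separated, and a lower level in such bulk tissue cannot tell fewer cells of a type from less RNA per cell.

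**Figure D1:**
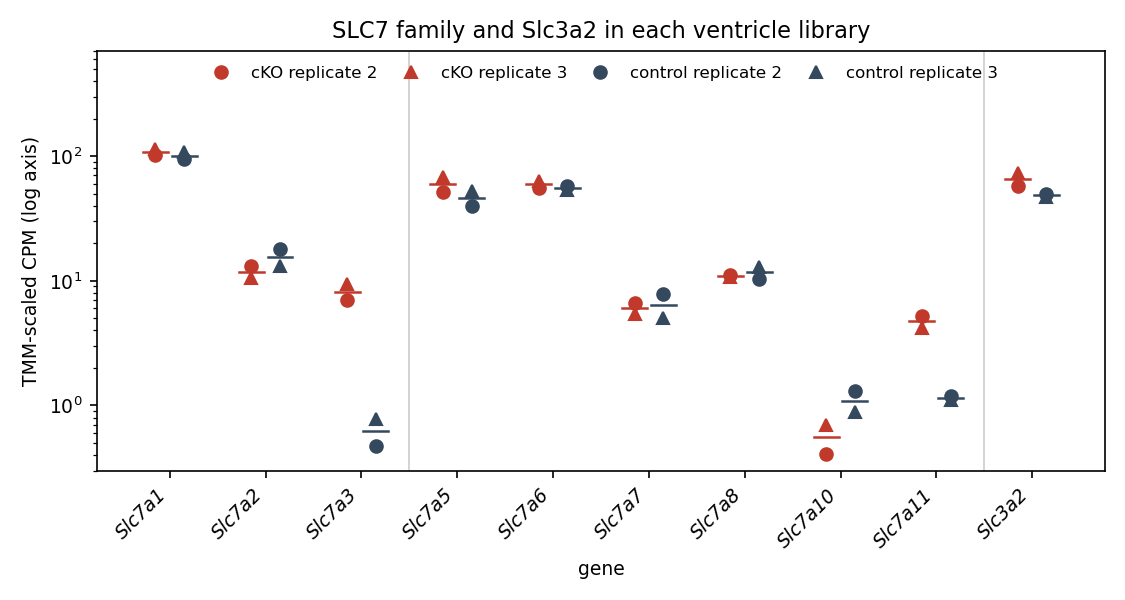
TMM-scaled CPM on a log axis for each of the 10 members, with red points for the 2 cKO libraries left of dark points for the 2 control libraries, circles for replicate 2, triangles for replicate 3 and bars for group means. Slc7a3 stands at 6.98 and 9.34 CPM in cKO, against 0.473 and 0.772 CPM in control, and Slc7a11 at 5.26 and 4.22 CPM against 1.18 and 1.10 CPM, while for Slc7a1, Slc7a5, Slc7a6, Slc7a7 and Slc7a8 the groups overlap.

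Slc7a3, a cationic carrier best known from the brain and from embryonic tissue (ENSMUSG00000031297, GRCm38 chromosome X, 101079210 to 101086020, minus strand), had 69 and 186 reads in cKO replicates 2 and 3, against 4 and 7 reads in control replicates 2 and 3. Its level was 6.98 and 9.34 CPM in cKO, against 0.473 and 0.772 CPM in control. The groups lay far apart, and the lower cKO library stood above the higher control library. Slc7a3 rose 13.0-fold (95% confidence interval 7.14 to 23.5), a log2 fold change of 3.70 ± 0.37 (SE, adjusted p = 0.00402 by edgeR's quasi-likelihood test), which was the 28th smallest p of the table. Slc7a3 passed the filter on low counts through its cKO libraries, as both control counts were below the minimum count of 10. With no filter its log2 fold change was 3.70 (adjusted p = 0.00424 by edgeR's quasi-likelihood test). Without each library in turn it ran from 3.40 to 4.09. Slc7a3 is X-linked, and the fit without the male library, cKO replicate 3, gave 3.45 (adjusted p = 0.0133) with 1 female library left in cKO. All 4 of its expected counts were whole numbers to within 0.001, and the longest stretch of at least 95% identity with another counted gene was 34 bases.

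Slc7a1, the carrier that most cells use for arginine and lysine and, in mice, the receptor of ecotropic leukaemia viruses (chromosome 5, 148327410 to 148399904, minus strand), had 103 and 114 CPM in cKO, against 94.1 and 107 CPM in control. The ranges overlapped. The log2 fold change was 0.11 with a 95% confidence interval of -0.12 to 0.33 (adjusted p = 0.873), and with 1 library left out it ranged from 0.014 to 0.205. Slc7a2, whose spliced forms serve liver and activated macrophages (chromosome 8, 40862396 to 40922308, plus strand), had 13.2 and 10.5 CPM in cKO, against 17.9 and 13.2 CPM in control. Here the nearest libraries of the groups stood 13.15 CPM in cKO against 13.23 CPM in control, and the log2 fold change of -0.41 (interval -0.86 to 0.04) did not pass (adjusted p = 0.726). Leaving out cKO replicate 3 gave -0.24, and leaving out control replicate 2 gave -0.17. Slc7a2 shares 635 exonic bases with Gm26584 on the opposite strand, which had an expected count of 1.01 in cKO replicate 3 and 0 in the other libraries. All 4 expected counts of Slc7a2 were fractions, so some of its reads were shared out between genes.

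Levels of different genes are compared only per length, as CPM per kilobase of the gene's annotated exons. On this scale the 3 cationic carriers summed to 12.2 and 13.5 in cKO, against 10.24 and 10.97 in control. Slc7a3 made up 15.2% and 18.3% of that sum in cKO, against 1.22% and 1.86% in control. Slc7a1 made up 73.0% and 73.2% in cKO, against 79.7% and 84.9% in control, so it remained the main cationic carrier in all 4 libraries. Slc7a2 made up 11.8% and 8.51% in cKO, against 19.1% and 13.2% in control, and it stood above Slc7a3 in both control libraries and below it in both cKO libraries. With 2 libraries per group an exact two-sided permutation test cannot go below p = 0.333, and it gave that value for each of these shares.

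**Figure D2:**
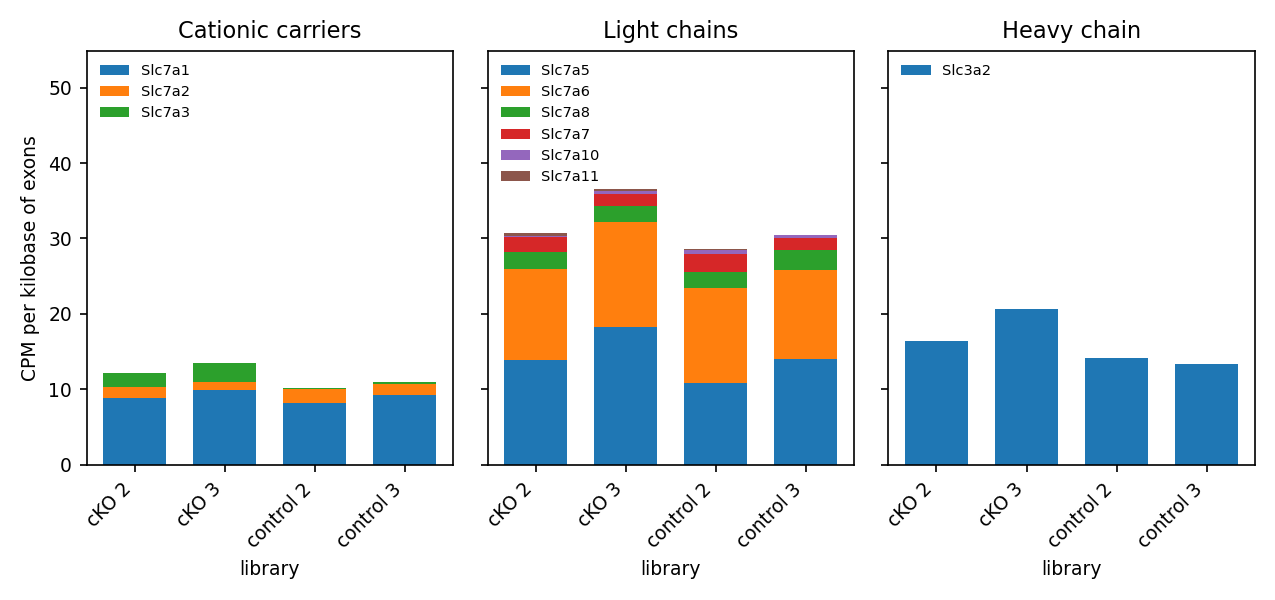
CPM per kilobase of exons in each library, stacked by gene, for the cationic carriers, the light chains and the heavy chain, with the 2 cKO libraries left of the 2 control libraries. Slc7a1 fills most of the cationic bars, Slc7a3 is visible as 15.2% and 18.3% of them in cKO and 1.22% and 1.86% in control, and Slc7a5 and Slc7a6 fill most of the light chain bars.

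Slc7a11, the light chain that brings in cystine in exchange for glutamate and so supplies cysteine for glutathione (ENSMUSG00000027737, chromosome 3, 49892526 to 50443614, minus strand), had expected counts of 51.8 and 83.5 in cKO, against 10.1 and 9.56 in control. The levels were 5.26 and 4.22 CPM in cKO and 1.18 and 1.10 CPM in control. The groups did not overlap. Its log2 fold change was 2.03 ± 0.35 (SE), or 4.08-fold with a 95% confidence interval of 2.35 to 7.09, and it narrowly missed the threshold (adjusted p = 0.0598 by edgeR's quasi-likelihood test). With cKO replicate 3 thinned to the depth of the other libraries in 1 random draw, Slc7a11 passed (2.18, adjusted p = 0.0325 by edgeR's quasi-likelihood test). It passed in no other refit, and further draws were not made. In the refits on its own counts the log2 fold change ran from 1.88 to 2.19 and the adjusted p from 0.0325 to 0.354.

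The Slc7a11 value has a limit in the sequence of the gene itself. Its long last exon holds 373 bases that match the alpha-tubulin genes Tuba1a, Tuba1b and Tuba1c on the opposite strand at 95.4% to 96.2% identity, and the library kit does not mark strand. Tuba1b alone had 1404 and 1397 CPM in cKO, against 1462 and 1487 CPM in control, a log2 fold change of -0.07 ± 0.09 (SE). The log2 fold change was 0.058 ± 0.084 (SE) for Tuba1a and 0.198 ± 0.145 (SE) for Tuba1c. Tuba1c had 144.6 and 103.4 CPM in cKO, against 109.8 and 105.4 CPM in control. All 4 expected counts of Slc7a11 were more than 0.001 away from a whole number, so some of its reads were shared out between genes. The part of tubulin reads in them was not tested. Summed with these near-identical copies, whose counts exceed its own by far, the total gave -0.02 on the log2 scale (adjusted p = 0.981), a value that describes mainly the tubulin genes.

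The promoter of Slc7a11 is known in mice to carry amino acid response elements that ATF4 binds, and it is shown here for that reason beside the promoter of Slc7a7, a member that did not pass. Both come from RefSeq on GRCm38.p6, run 5′ to 3′ on the minus strand from 250 bases before to 50 bases after the annotated start, and have in capitals each match to the motif TGATGNAA on either strand. The Slc7a11 window is chr3:50443564-50443863 and the Slc7a7 window chr14:54417895-54418194, 1 of 5 annotated starts of that gene. Of the Slc7a7 windows it held the most matches, and the others held 1 or 0.
Slc7a11: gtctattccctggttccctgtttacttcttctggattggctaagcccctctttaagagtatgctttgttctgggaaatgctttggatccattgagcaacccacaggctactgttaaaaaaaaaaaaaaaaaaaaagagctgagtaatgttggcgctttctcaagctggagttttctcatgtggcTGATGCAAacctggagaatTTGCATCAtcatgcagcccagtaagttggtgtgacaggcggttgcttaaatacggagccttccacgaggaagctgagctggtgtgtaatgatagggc
Slc7a7: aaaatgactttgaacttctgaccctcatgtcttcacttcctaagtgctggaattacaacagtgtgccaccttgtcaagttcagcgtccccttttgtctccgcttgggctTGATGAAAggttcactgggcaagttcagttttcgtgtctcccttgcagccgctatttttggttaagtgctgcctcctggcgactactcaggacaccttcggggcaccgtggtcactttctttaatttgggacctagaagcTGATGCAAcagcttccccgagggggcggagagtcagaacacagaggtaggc
The Slc7a11 window held 2 matches, TGATGCAA at -66 to -59 and TTGCATCA, its reverse complement, at -47 to -40 from the start. The Slc7a7 window also held 2, TGATGAAA at -141 to -134 and TGATGCAA across the start itself. Among 32851 windows of all genes 3.97% held at least 1 match and 0.0700%, or 23 windows, held 2 or more. Windows were found for 7 of the 10 members, with 13 windows in all, and 3 of the 13 held a match, those windows being of Slc7a11 and Slc7a7. The 2 Slc7a7 windows among them overlap. Slc7a3, Slc7a2 and Slc7a5 had no entry and were not searched. The core letters that HIF binds, ACGTG or GCGTG on either strand, stood in 6 of the 13 member windows (of Slc3a2, Slc7a1, Slc7a6 and Slc7a7), against 43.8% of all windows. A match describes letters only and is not a site shown to be bound.

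Slc3a2, the heavy chain also called CD98, which takes the light chains to the membrane (ENSMUSG00000010095, chromosome 19, 8706882 to 8723369, minus strand), had 57.96 and 72.99 CPM in cKO, against 49.77 and 47.19 CPM in control. Both cKO libraries lay above both controls, by more in replicate 3. All 4 expected counts of Slc3a2 were fractions, so some of its reads were shared out between genes. The log2 fold change was 0.44 ± 0.12 (SE; 95% confidence interval 0.16 to 0.72) with an unadjusted p of 0.00674 and an adjusted p of 0.430, short of the threshold in edgeR's quasi-likelihood test. It was 0.26 without cKO replicate 3 (adjusted p = 0.823) and 0.59 without cKO replicate 2 (adjusted p = 0.0545). With a control library left out it was 0.48 without replicate 2 (adjusted p = 0.295) and 0.40 without replicate 3 (adjusted p = 0.887).

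Slc7a5, the leucine and large neutral amino acid carrier of growing cells (chromosome 8, 121881150 to 121907694, minus strand), had 51.5 and 67.8 CPM in cKO, against 40.0 and 52.2 CPM in control. Replicate 3 stood above replicate 2 in both groups, and the lower cKO library lay just below the higher control. Its log2 fold change of 0.38 (interval 0.01 to 0.75) did not pass (adjusted p = 0.707), and it was 0.56 without cKO replicate 2, 0.16 without cKO replicate 3, 0.20 without control replicate 2 and 0.59 without control replicate 3.

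**Figure D3:**
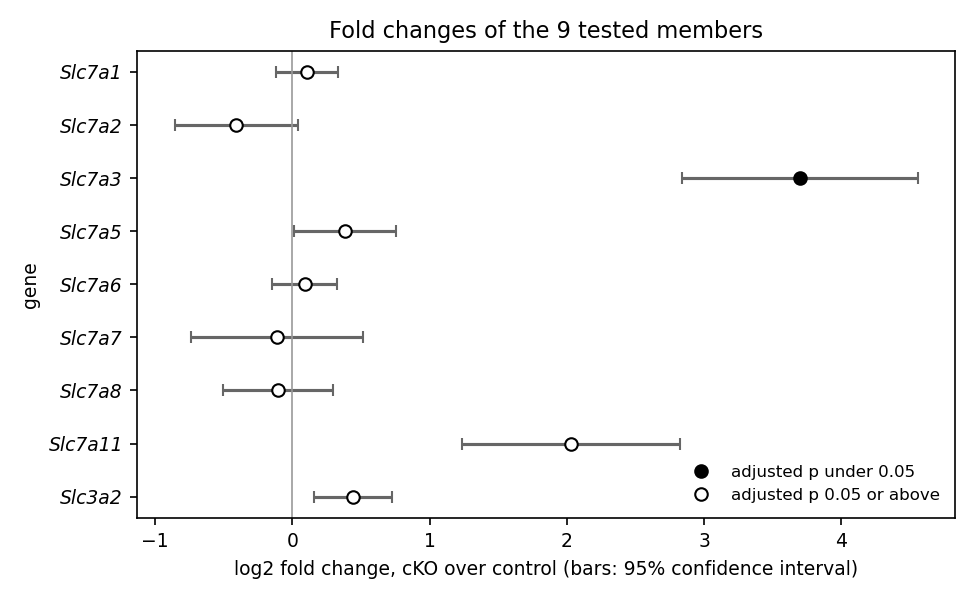
Log2 fold change, cKO over control, of the 9 tested members with 95% confidence intervals from the quasi-likelihood fit, filled where the adjusted p was under 0.05. Slc7a3 at 3.70 is the filled point, Slc7a11 at 2.03 has the second largest value, and the other 7 lie between -0.41 and 0.44.

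The other tested light chains, Slc7a6, Slc7a7 and Slc7a8, did not pass. Slc7a6, which trades cationic for neutral amino acids (chromosome 8, 106168857 to 106198706, plus strand), had 55.13 and 63.54 CPM in cKO, against 58.04 and 53.92 CPM in control, with an interval of -0.15 to 0.33 for its log2 fold change of 0.09. Slc7a7, which does the same in kidney, gut and macrophages and is mutated in human lysinuric protein intolerance (chromosome 14, 54369442 to 54417780, minus strand), had 6.58 and 5.43 CPM in cKO, against 7.80 and 5.07 CPM in control. Its interval was wide, from -0.74 to 0.51 around -0.11. It shares 232 exonic bases with Oxa1l on the opposite strand, so reads there cannot be told apart, and Oxa1l stood at 97.7 and 96.3 CPM in cKO, against 87.8 and 86.0 CPM in control. Slc7a8, a carrier of neutral amino acids (chromosome 14, 54722209 to 54781946, minus strand), had 11.2 and 10.7 CPM in cKO, against 10.4 and 13.0 CPM in control, with a log2 fold change of -0.10 (interval -0.51 to 0.30). Adjusted p values of these 3 genes lay between 0.896 and 0.952.

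Slc7a10, a carrier of small neutral amino acids and D-serine (chromosome 7, 35186385 to 35201114, plus strand), did not pass the filter on low counts. Its expected counts were 4.28 and 14.1 in cKO, against 11.2 and 8.21 in control, or 0.405 and 0.703 CPM in cKO and 1.30 and 0.882 CPM in control. Both cKO libraries lay below both controls, at levels where single reads matter. In the fit without a filter the log2 fold change was -0.88 ± 0.55 (SE, adjusted p = 0.882 by edgeR's quasi-likelihood test). It shares 377 exonic bases with Lrp3 on the opposite strand.

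Per kilobase of exons Slc3a2 was the highest member at 18.6 ± 3.01 in cKO and 13.7 ± 0.516 in control (SD, n = 2 each). Slc7a5 followed with 16.1 ± 3.11 in cKO and 12.4 ± 2.33 in control, and Slc7a6 with 13.0 ± 1.30 in cKO and 12.2 ± 0.638 in control. Neighbours in this order, Slc3a2 and Slc7a5 or Slc7a5 and Slc7a6, differed by no more than the larger SD in either group. Slc7a1 stood below them at 9.39 ± 0.712 in cKO and 8.74 ± 0.816 in control. This place depended on the length used. Per kilobase of the longest coding transcript Slc7a1 had 15.1 ± 1.14 in cKO and 14.0 ± 1.31 in control, beside 17.0 ± 3.28 and 13.1 ± 2.45 for Slc7a5 and 15.8 ± 1.59 and 14.9 ± 0.777 for Slc7a6, and these 3 genes differed by no more than the larger SD in either group. A gap followed, with Slc7a8 at 2.19 ± 0.0819 in cKO and 2.34 ± 0.369 in control and Slc7a7 at 1.81 ± 0.245 in cKO and 1.94 ± 0.582 in control. Slc7a2 had 1.29 ± 0.205 in cKO and 1.70 ± 0.358 in control. Slc7a3 reached 2.16 ± 0.442 in cKO, at the level of Slc7a8 and Slc7a7, and stood at 0.165 ± 0.0559 in control. Slc7a11 stayed low in both groups, with 0.341 ± 0.0529 in cKO and 0.0821 ± 0.00404 in control, beside Slc7a10 with 0.262 ± 0.100 in cKO and 0.517 ± 0.140 in control.

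The 6 light chains together stood at 30.8 and 36.6 per kilobase in cKO, against 28.6 and 30.5 in control. Slc7a5 made up 45.16% and 49.98% of them in cKO, against 37.66% and 46.13% in control, and Slc7a6 made up 39.2% and 38.0% in cKO, against 44.4% and 38.7% in control. Slc7a11 made up 1.23% and 0.828% in cKO, against 0.297% and 0.260% in control. Light chain transcripts per transcript of Slc3a2 numbered 1.87 and 1.77 in cKO, against 2.03 and 2.28 in control, on this scale. The groups did not overlap, and the exact two-sided permutation test gave p = 0.333, the smallest possible here.

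Related genes outside the list summed to 16.7 and 13.3 CPM in cKO, against 14.1 and 19.4 CPM in control. Of 7 such genes (Slc7a4, Slc7a9, Slc7a12, Slc7a13, Slc7a14, Slc7a15 and the other heavy chain Slc3a1) 3 could be tested and 0 passed. All 3 of them had a negative log2 fold change (median -0.22), while 6 of the 9 tested members had a positive one. Slc7a12 and Slc7a13 were at 0 in all libraries. The smallest p was that of Slc7a9, a cystine carrier of the kidney, at 1.01 and 0.603 CPM in cKO, against 1.18 and 1.10 CPM in control. Of 27 amino acid carriers of other families 22 were tested and 0 passed, with a median log2 fold change of -0.01. Slc6a17, a vesicular carrier of neutral amino acids known from neurons, came nearest with 14.97 and 19.24 CPM in cKO, against 31.92 and 29.33 CPM in control (log2 fold change -0.82 ± 0.14, SE; adjusted p = 0.0598 by edgeR's quasi-likelihood test).

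The ATF4 list shares no gene with the members and was chosen with earlier results of these data known. It had 3 of 23 tested genes higher and 0 lower, against 0.146% higher and 0.365% lower over all tested genes. Its median log2 fold change was 0.41, against 0.00 over all genes. The genes that rose were Asns, Phgdh and Mthfd2, which make asparagine, serine and one-carbon units. Asns stood at 39.3 and 55.6 CPM in cKO, against 15.1 and 16.4 CPM in control. Their fold changes were 3.04 for Asns, 1.74 for Phgdh and 1.98 for Mthfd2, beside 13.0 for Slc7a3.

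Genes that use what the carriers bring in did not pass. Of 11 tested genes of arginine and polyamine metabolism 0 rose and 0 fell (median 0.00), and the smallest p was that of Gatm, which makes the creatine precursor from arginine, with 36.0 and 26.3 CPM in cKO, against 36.3 and 38.5 CPM in control. Of 7 tested genes of glutathione synthesis from cystine 0 passed (median 0.02). Cth, which makes cysteine from cystathionine, had the smallest p, with 3.54 and 3.77 CPM in cKO, against 1.77 and 1.32 CPM in control (log2 fold change 1.24 ± 0.34, SE; adjusted p = 0.415 by edgeR's quasi-likelihood test). Of 19 genes of leucine and arginine sensing by mTORC1 0 passed, 14 had a positive log2 fold change, and the median was 0.11. Lars, the leucyl-tRNA synthetase, had 109 and 122 CPM in cKO, against 87.7 and 86.9 CPM in control (adjusted p = 0.180).

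The genes nearest to Slc7a3 in their pattern over the 4 libraries were sought by the distance between log2 CPM values centred on each gene's mean, among genes with a mean of at least 1 CPM and leaving out predicted genes and pseudogenes. The nearest was Chac1, a gene of the ATF4 list that degrades glutathione, at a distance of 0.969 log2 units, with 2.63 and 3.82 CPM in cKO, against 0.355 and 0.551 CPM in control (adjusted p = 0.0569). Fndc10 followed at 1.13, with 3.44 and 3.52 CPM in cKO and 0 reads in both controls, and Tagap at 1.15, with 2.53 and 3.01 CPM in cKO, against 0 and 0.551 CPM in control. Slc7a3 was taken for this search as the member with the smallest p, so genes near it are higher in cKO by construction. Like Slc7a3, these genes passed the filter on low counts through their cKO libraries. Over 4 libraries such a distance describes a pattern and carries no test.

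**Figure D4:**
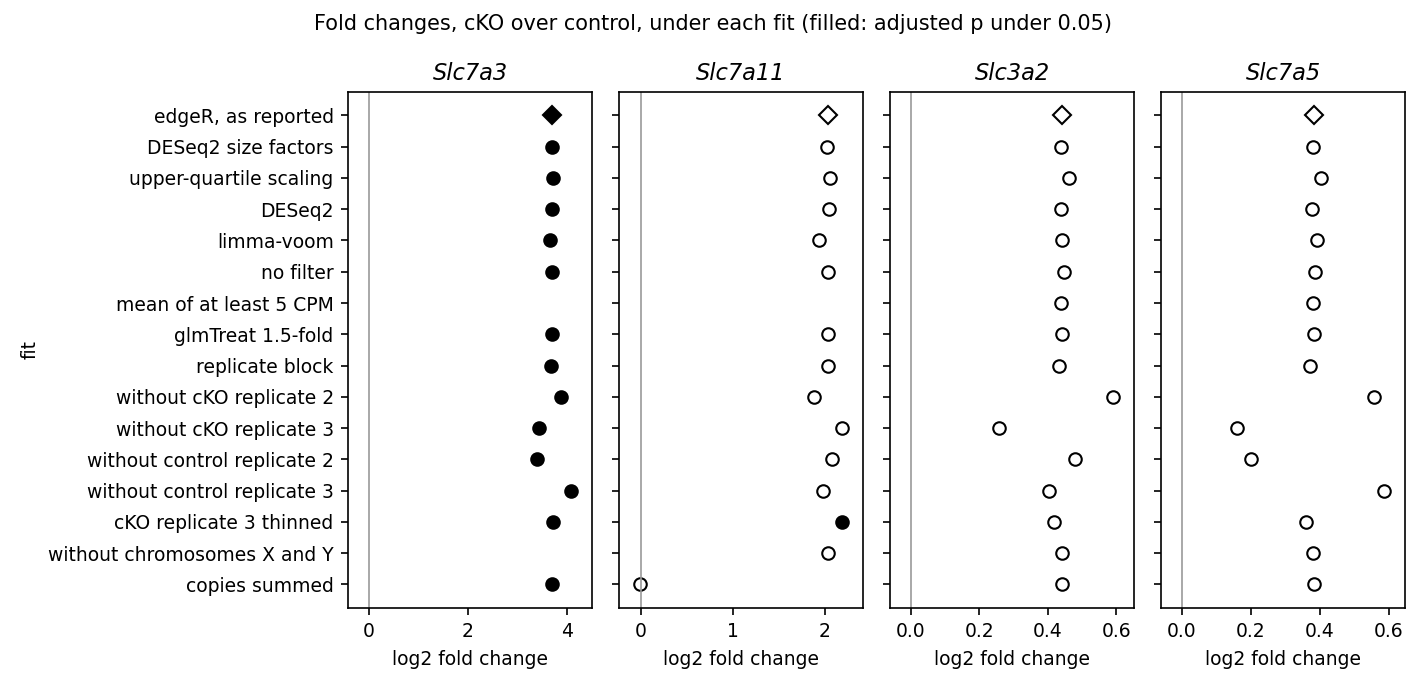
Log2 fold change, cKO over control, of Slc7a3, Slc7a11, Slc3a2 and Slc7a5 under each fit, filled where the adjusted p was under 0.05, each gene on an axis of its own. Slc7a3 is filled in every fit that tested it, from 3.40 to 4.09, Slc7a11 is filled with cKO replicate 3 thinned and stands at -0.02 when summed with its copies, and Slc3a2 and Slc7a5 stay unfilled and move most when 1 library is left out.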

How the data were processed

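The deposited table gives expected counts, in which the authors' estimate splits reads that match several genes, so values can be fractions. CASAVA 1.8.2, cutadapt 1.3, RSEM 1.2.3 and GRCm38 were used, per the submitters' processing notes; annotation, strand setting and options: not given in the sources used here. Libraries were made from 500 ng of RNA and read as single reads of 75 bases, per the labels' protocols. Symbols, positions and exon lengths came from GENCODE M21, which named 36345 of 38293 identifiers.

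Expected counts were rounded, low genes were left out by filterByExpr (minimum count 10, minimum total 15), libraries were scaled by TMM and groups tested with edgeR 4.0.16 (glmQLFit, glmQLFTest, R 4.3.3) on 2 residual degrees of freedom. Adjusted p values come from this test unless another is named. SE is the log2 fold change over the square root of F. The steps were tested on simulated counts. DESeq2 1.42.0 and limma 3.58.1 served as alternatives. Near-identical copies (at least 95% over 300 bases, either strand) were sought with BLAST 2.17.0 among counted transcripts. All members were named; of each list, up to 4 genes past the threshold, or the 1 with the smallest p. The members and lists were chosen with earlier results of these data known. Between replicates of a group counts differed beyond sampling noise (chi-square over degrees of freedom of 12.2 in cKO and 5.54 in control), and all embryos shared 1 litter.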

Additional observations from a re-analysis of the deposited data

How the results depend on the processing

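Of 132 member values over 15 refits, 126 kept their direction and their side of the threshold. A high count was likely beforehand. Members other than Slc7a3 and Slc7a11 had an adjusted p of 0.430 or above in edgeR's quasi-likelihood test, and several refits only rescaled the same counts. Members called numbered 1, but 0 with a mean of at least 5 CPM or without chromosomes X and Y, which leave Slc7a3 untested by construction. They numbered 2 with cKO replicate 3 thinned in 1 random draw, when Slc7a11 passed (2.18). Slc7a3 passed in all 13 refits that tested it. Genes called numbered 70, against 33 for a 1.5-fold change and 39 to 141 with 1 library left out (39 without control replicate 3, 141 without cKO replicate 2). With copies summed, Slc7a11 turned to -0.015, since tubulin counts make up nearly all of the sum. With 1 library left out the members' median ranged from 0.03 to 0.202, Slc7a2 from -0.605 to -0.173, Slc7a6 ranged from -0.022 to 0.185, Slc7a7 from -0.389 to 0.231 and Slc7a8 from -0.253 to 0.07; the cause was not tested. The replicate block gave 75 calls, with 69 of the 70, and changed no member's call; libraries with the same number had deviations from their group means that correlated at 0.106 over genes, and no label says that a number marks a shared origin. Per kilobase of the longest coding transcript, levels in cKO and control were 15.1 and 14.0 for Slc7a1, 2.97 and 0.226 for Slc7a3, 15.8 and 14.9 for Slc7a6, 2.63 and 2.83 for Slc7a7, 2.68 and 2.87 for Slc7a8, 0.514 and 0.124 for Slc7a11 and 23.3 and 17.2 for Slc3a2. On that scale, chosen for ratios after seeing the data, light chains per Slc3a2 were 1.68 in cKO and 2.00 in control, and Slc7a3 made up 15.1% of cationic carriers in cKO and 1.38% in control. By group means Slc7a5, at 17.0 in cKO and 13.1 in control, then stood above Slc7a6 and Slc7a1 in cKO and below both in control. These differences were no larger than the larger SD, and single libraries did not keep the order. Slc7a5 had 14.64 against 14.7 for Slc7a6 in cKO replicate 2, and 14.83 against 14.38 in control replicate 3. A leave-out leaves 1 library in a group, which is assumed to vary like the other group. Control counts of 4 and 7 limit the precision of Slc7a3's fold.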
